A study of Mus musculus with 9 samples.

Results

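The 6 genes described here encode the Hes and Hey transcriptional repressors Hes1, Hes5, Hes6, Hey1, Hey2 and Heyl. They were taken by symbol from a table of 21210 genes, and each symbol matched 1 row. The table holds strand-specific poly-A RNA sequencing of cells sorted from C57BL/6 mouse lateral cortex at embryonic day 14.5, after meninges and ganglionic eminences were taken off. The study compared 3 sorted populations, each with 3 libraries: proliferating progenitors (negative for the Btg2 reporter), differentiating progenitors (positive for the Btg2 reporter) and neurons (positive for the Tubb3 reporter). Btg2 marks progenitors about to generate neurons, and Tubb3 is a beta-tubulin of neurons. All libraries share the genotype label Btg2GFP/Tubb3GFP, while their titles give RFP for the Btg2 reporter. Each library pooled sorted cells from more than 3 embryos of different litters, so the spread between libraries is the spread between pools. All values below are normalised read counts as the authors deposited them, unless a sentence says otherwise.

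Hes and Hey proteins are basic helix-loop-helix repressors and the best known targets of Notch signalling. When a neighbouring cell presents a Delta or Jagged ligand, the Notch receptor is cut, and its intracellular part joins the DNA-binding protein Rbpj and Mastermind coactivators to switch these genes on. Their products hold proneural genes such as Neurog2 low, which keeps radial glia, the apical stem cells of the embryonic cortex, from differentiating. Of these, Hes proteins recruit Groucho/TLE corepressors. Hes6 is the atypical member: it is not a typical Notch target, and it is known to counteract Hes1 and to favour neuronal differentiation. Hey1, Hey2 and Heyl are also genes of blood vessels.

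Normalised totals were 17531558 to 22076409 per library, and the spacing of low values put the reads behind them near 12657785 to 27551358. The genes behind the sort were highest where the labels place them: Btg2 stood at 14022 to 19983 in differentiating progenitors, against 7032 to 9336 in proliferating progenitors, and Tubb3 at 39932 to 50230 in neurons, against 9711 to 13097 in differentiating progenitors. Radial glia markers (10 genes) summed to 113415 to 130394 in proliferating progenitors, 51068 to 72048 in differentiating progenitors and 6565 to 7911 in neurons. Sums of 10 intermediate progenitor markers were 24701 to 29938 in proliferating progenitors, 72494 to 90110 in differentiating progenitors and 21184 to 27768 in neurons. For 8 neuronal markers the same populations had sums of 2618 to 7006, 35172 to 42509, and 172696 to 207253. The sort genes Btg2 and Tubb3 are among these intermediate progenitor and neuronal markers. Proliferating progenitor libraries also held red blood cell transcripts (8 genes, summing to 102705 to 255964, against 214 to 2044 in differentiating progenitors and 198 to 280 in neurons). In sorted pools, fewer cells of a type and less RNA per cell cannot be told apart.

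Per kilobase of gene length, the 6 genes together stood at 7675, 5493 and 5508 in proliferating progenitors, 7634, 5168 and 5466 in differentiating progenitors, and 1392, 1187 and 1236 in the neuron libraries. The summed level per kilobase of the progenitor populations overlapped, and that of neurons lay below both. The make-up of that sum differed between the progenitor populations. Hes5 had the largest share of the summed level in proliferating progenitors, 54.6%, 40.7% and 35.6% in replicates 1, 2 and 3. Hes6 held 33.2%, 52.8% and 51.7% in differentiating progenitors, against 16.3%, 17.1% and 17.2% in proliferating progenitors. In neurons Hes6 made up 66.3%, 68.8% and 67.8%, and Hey1 28.0% to 30.2%, while Hes1 had 0.516% ± 0.055 and Hes5 1.88% ± 0.46 (SD, n = 3). The order of mean levels per kilobase was Hes5, Hey1, Hes6, Hes1, Hey2 and Heyl in proliferating progenitors, Hes6, Hes5, Hey1, Hes1, Hey2 and Heyl in differentiating progenitors, and Hes6, Hey1, Hes5, Hey2, Hes1 and Heyl in neurons. Neighbours in that order with overlapping libraries were Hes6 and Hes1 in proliferating progenitors (938 to 1254 and 841 to 1121 per kilobase), Hes6 and Hes5 in differentiating progenitors, and Hey2 and Hes1 in neurons.

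**Figure D1:**
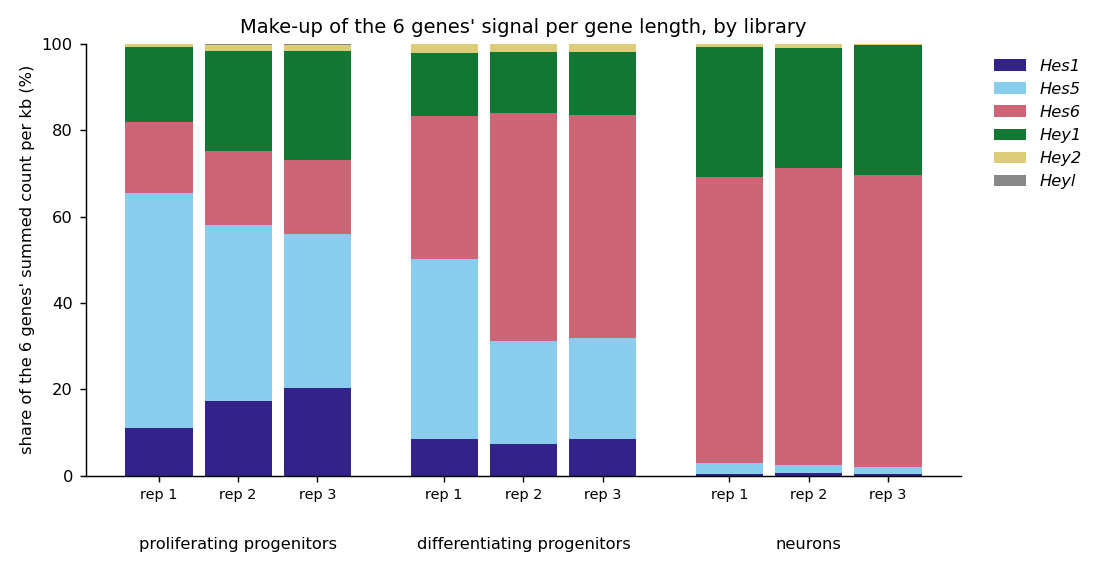
Share of each gene in the summed normalised count per kilobase of the 6 Hes and Hey genes (vertical axis, percent), 1 bar per library in 3 groups of 3. Hes5 is the largest block in the proliferating progenitor bars, Hes6 takes 33.2% to 52.8% in differentiating progenitors, and Hes6 and Hey1 fill nearly the whole bar in neurons.

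The RefSeq promoter table on build GRCm38.p6 matched 3 of the 6 members, Hes5, Hey2 and Hes6, with 2 windows for Hes6. In neurons Hes5 and Hey2 had under 10% of their proliferating progenitor mean and Hes6 kept 82.1%. A link between these levels and the promoter letters was not tested, and Hes1, Hey1 and Heyl had no window. All windows found are shown. Each window runs from 250 bases before to 50 after the gene start and is written in the direction of the gene. Capitals mark the core of the Rbpj site, GTGGGAA, or its reverse complement TTCCCAC.
Hes5, chr4:154960673-154960972, plus strand: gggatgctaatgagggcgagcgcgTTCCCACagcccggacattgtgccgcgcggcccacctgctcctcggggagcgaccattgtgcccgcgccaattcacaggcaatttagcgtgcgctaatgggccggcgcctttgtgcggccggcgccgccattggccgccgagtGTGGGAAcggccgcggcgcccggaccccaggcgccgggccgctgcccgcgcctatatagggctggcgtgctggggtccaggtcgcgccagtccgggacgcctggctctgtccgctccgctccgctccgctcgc
Hey2, chr10:30842734-30843033, minus strand: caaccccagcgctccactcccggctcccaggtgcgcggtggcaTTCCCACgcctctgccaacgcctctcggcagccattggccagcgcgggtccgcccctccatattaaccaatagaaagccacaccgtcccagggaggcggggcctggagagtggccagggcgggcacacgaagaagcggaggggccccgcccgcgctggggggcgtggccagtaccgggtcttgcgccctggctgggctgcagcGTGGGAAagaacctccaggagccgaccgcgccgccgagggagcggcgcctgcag
Hes6, chr1:91413989-91414288, minus strand: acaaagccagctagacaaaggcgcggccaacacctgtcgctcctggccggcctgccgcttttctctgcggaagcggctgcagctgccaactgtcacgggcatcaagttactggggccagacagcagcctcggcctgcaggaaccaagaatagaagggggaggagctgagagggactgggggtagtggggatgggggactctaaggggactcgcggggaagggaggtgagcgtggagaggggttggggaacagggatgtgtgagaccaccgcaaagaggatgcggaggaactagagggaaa
Hes6, second start, chr1:91413173-91413472, minus strand: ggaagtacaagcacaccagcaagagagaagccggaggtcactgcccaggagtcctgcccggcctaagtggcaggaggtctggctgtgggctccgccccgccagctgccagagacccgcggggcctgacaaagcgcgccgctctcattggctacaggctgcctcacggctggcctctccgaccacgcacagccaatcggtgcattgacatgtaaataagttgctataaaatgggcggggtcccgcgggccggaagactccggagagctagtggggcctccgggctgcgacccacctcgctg
The Hes5 window holds the 7 letters in both orientations, beginning at -226 and -83 from the start, and so does the Hey2 window, at -207 and -4. Neither Hes6 window holds them. Of all 32851 promoter windows in the table, 6.38% hold the core on either strand and 0.256% hold it at least 2 times. E-boxes (CANNTG), the sites of proneural factors, numbered 3 and 1 in the Hes6 windows and 1 each in the Hes5 and Hey2 windows. Of all windows, 72.3% hold at least 1 E-box and 39.6% at least 2. The N-box (CACNAG), a site of Hes proteins on either strand, occurred 2 times in the second Hes6 window. Of all windows, 42.5% hold it at least 1 time and 11.3% at least 2 times. The class C site (CACGNG) occurred 1 time in the first Hes6 window and in 27.5% of all windows. A match is a run of letters and not a measured site.

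Hes1, the Notch effector that keeps radial glia undifferentiated, fell at both steps, first in differentiating against proliferating progenitors and then in neurons against differentiating progenitors. It stood at 1713, 1935 and 2284 in proliferating progenitors, 1307, 761 and 942 in differentiating progenitors, and 14, 14 and 12 in the neuron libraries. No 2 populations of Hes1 overlapped (of all genes tested, 18.8% separated downwards at the first step and 29.5% at the second), and the neuron libraries lay close together near the bottom of the range. The mean was 1003 ± 278 in differentiating progenitors and 1977 ± 288 in proliferating progenitors (SD, n = 3 each), a fitted fold of 0.499 (95% interval 0.364 to 0.683; limma adjusted p = 0.00624). Neurons averaged 13.3 ± 1.2, against 1003 ± 278 in differentiating progenitors, a log2 change of -6.10 ± 0.20 (SE; limma adjusted p = 6.18e-08). That change was the 24th lowest of 15828 genes tested (1 being the largest fall). In neurons the Hes1 mean was 0.674% of that in proliferating progenitors, a fall to 1/20 or below that 3.97% of genes tested shared, with about 41 reads over the 3 neuron libraries.

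Hes5, the other main Notch effector of radial glia, had the highest level per kilobase in proliferating progenitors, and its level differed between replicate numbers. It stood at 6710, 3586 and 3142 in proliferating progenitors, 5102, 1978 and 2048 in differentiating progenitors, and 53, 34 and 29 in the neuron libraries. Replicate 1 was the highest library in each population, at 1.99, 2.53 and 1.68 times the mean of replicates 2 and 3. The progenitor populations overlapped, and the change between them, -0.62 ± 0.42 on the log2 scale, did not pass (limma adjusted p = 0.342; 95% interval -1.57 to 0.32). Within each replicate number Hes5 was lower in differentiating progenitors, at 0.760, 0.552 and 0.652 of the proliferating progenitor value. With replicate number as a block, the change of -0.62 ± 0.12 passed (limma adjusted p = 0.00188; 22% of genes were lower in that fit). Replicates 2 and 3 alone gave -0.74 (limma adjusted p = 0.00213; 16.7% of genes lower). Replicate 1 libraries also had fewer reads (about 12657785, 15040040 and 18261876) than the others (18887227 to 27551358), and the part of depth in this was not tested. The gene Gm20421 overlaps Hes5 on the other strand in GENCODE, and the use of strand in counting was not given in the sources used here.

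In neurons Hes5 fell to 38.7 ± 12.7, against 3043 ± 1784 in differentiating progenitors (SD, n = 3 each). The log2 change was -6.16 ± 0.42 (limma adjusted p = 2.18e-06), the 18th lowest of 15828 genes. The neuron and progenitor libraries did not overlap, where 29.5% of genes tested separated downwards from differentiating and 33.5% from proliferating progenitors. Per kilobase, Hes5 was 4.98, 2.36 and 1.75 times as high as Hes1 in proliferating progenitors, 4.96, 3.30 and 2.76 times in differentiating progenitors, and 4.81, 3.09 and 3.07 times in neurons. The 3 ranges of this ratio overlapped, while both genes lay near 1% of their proliferating progenitor mean in neurons (0.863% for Hes5).

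Hes6 had the opposite course at the first step and was the member that rose. It stood at 2267, 1696 and 1716 in proliferating progenitors, 4577, 4935 and 5114 in differentiating progenitors, and 1669, 1477 and 1515 in the neuron libraries. Every differentiating progenitor library lay above all 6 of the others. Of genes tested, 18.9% separated upwards at the first step and 29.5% downwards at the second. The mean was 4875 ± 273 in differentiating progenitors and 1893 ± 324 in proliferating progenitors (SD, n = 3 each), with a log2 change of 1.38 ± 0.12 (limma adjusted p = 8.42e-05). In neurons it was 1554 ± 102, a log2 change of -1.65 ± 0.12 against differentiating progenitors (limma adjusted p = 3.36e-06). Of 15828 genes tested, 2.2% were higher in differentiating progenitors than in both other populations. Intermediate progenitor markers (10 of 10) and neuronal markers (8 of 8) also rose at the first step, where 13.8% of genes tested were higher. Those lists hold the sort genes Btg2 and Tubb3, and the rise of Btg2 follows from the sort. The part of cell make-up in the change of Hes6 was not tested.

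The mean of Hes6 in neurons was 82.1% of that in proliferating progenitors. The fold of neurons over proliferating progenitors was 0.827 (95% interval 0.685 to 0.999; log2 change -0.27 ± 0.12), which did not pass (limma adjusted p = 0.0741). Neurons were lower in 3 of 3 replicate numbers and the libraries did not overlap, which held in that direction for 33.5% of genes. With replicate number as a block the same change passed (limma adjusted p = 0.0232; 39.5% of genes lower). Replicates 2 and 3 alone gave -0.19 (limma adjusted p = 0.0298; 34.6% of genes lower). It also passed with every library scaled to the same total (log2 change -0.56, adjusted p = 0.00332), a scaling that shifted the median of all genes by -0.28. Without any 1 library, its adjusted p lay between 0.0521 and 0.23. Per kilobase, Hes6 stood at 3.95 to 7.31 times Hes1 in differentiating progenitors, against 0.846 to 1.49 times in proliferating progenitors. In neurons this ratio was 119 to 142.

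**Figure D2:**
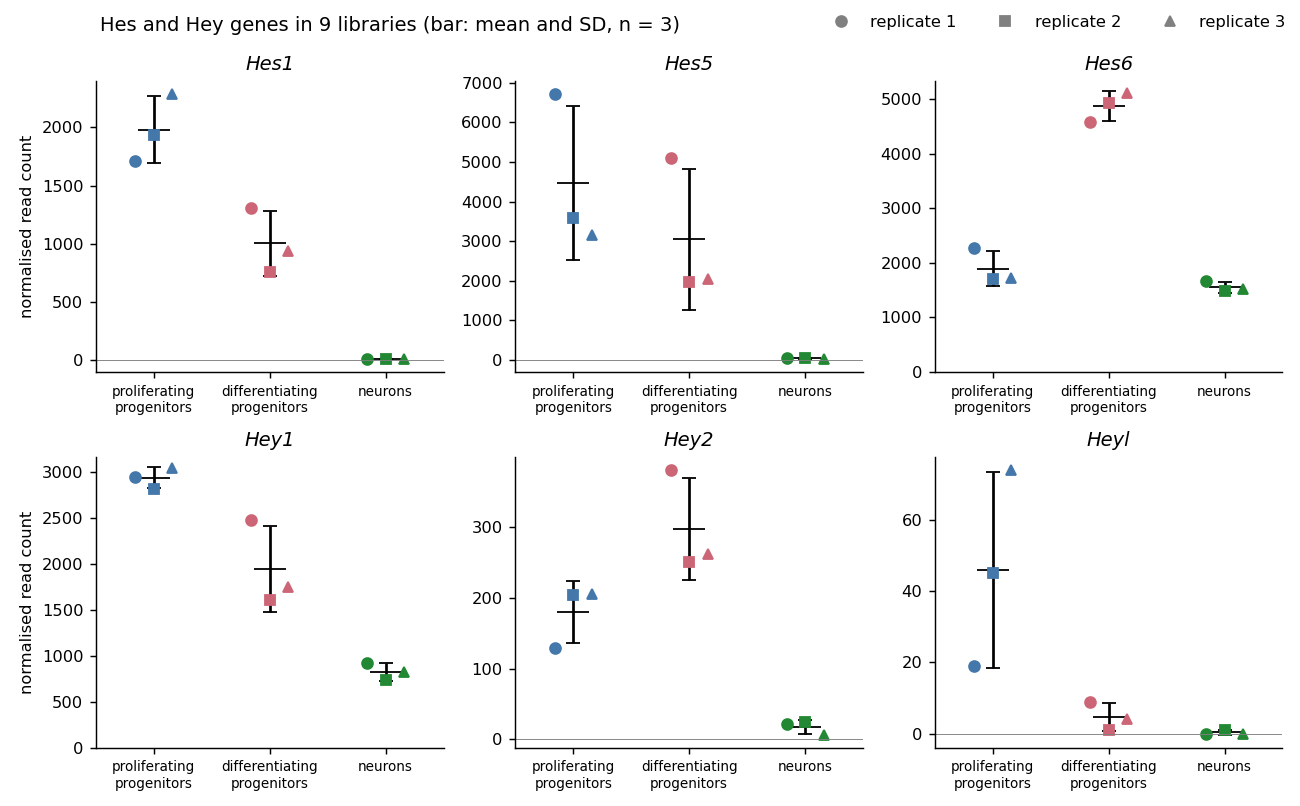
Normalised read count (vertical axis, linear) of each of the 6 genes in the 9 libraries, by population on the horizontal axis; symbols mark the replicate number, and bars the mean and SD (n = 3). Hes1, Hes5 and Heyl lie near 0 in neurons, Hes6 is highest in the 3 differentiating progenitor libraries (4577 to 5114), and replicate 1 of Hes5 lies above replicates 2 and 3 in each population.

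Hey1, a Hes-related repressor that also acts in blood vessels, declined in smaller steps. It stood at 2944, 2814 and 3042 in proliferating progenitors, 2475, 1611 and 1745 in differentiating progenitors, and 926, 733 and 819 in the neuron libraries. No 2 populations overlapped, where 18.8% of genes tested separated downwards at the first step and 29.5% at the second. Differentiating progenitor replicate 1 was the library nearest to the population above it. The mean was 1944 ± 465 in differentiating progenitors and 2933 ± 114 in proliferating progenitors (SD, n = 3 each), a log2 change of -0.62 ± 0.16 (limma adjusted p = 0.0201). It no longer passed when proliferating progenitor replicate 2 (adjusted p = 0.0504) or 3 (0.0661), or differentiating progenitor replicate 2 (0.0765) or 3 (0.0763), was left out. With the replicate block it held (limma adjusted p = 0.000698). In neurons Hey1 averaged 826 ± 96.7, a log2 change of -1.21 ± 0.16 against differentiating progenitors (limma adjusted p = 0.000153). Neurons retained 28.2% of the proliferating progenitor mean of Hey1, and per kilobase Hey1 was 48.4 to 63.1 times as high as Hes1 in neurons, against 1.71 to 1.96 times in differentiating progenitors and 1.23 to 1.59 times in proliferating progenitors.

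Hey2, known for its part in heart and vessel development and far lower here than Hey1, had its highest mean in differentiating progenitors. It stood at 130, 204 and 206 in proliferating progenitors, 381, 251 and 262 in differentiating progenitors, and 22, 24 and 7 in the neuron libraries. The differentiating progenitor libraries lay above the proliferating progenitor libraries without overlap, a separation in that direction that 18.9% of genes tested showed. The log2 change of 0.73 ± 0.43 did not pass (limma adjusted p = 0.268, and 0.139 with the replicate block; 95% interval -0.24 to 1.69). Replicate 1 gave a ratio of 2.93 and replicates 2 and 3 gave 1.23 and 1.27. In neurons Hey2 fell to 17.7 ± 9.3, against 298 ± 72.1 in differentiating progenitors (log2 change -4.14 ± 0.43, limma adjusted p = 3.23e-05). Per kilobase, Hey2 stood at 0.134, 0.136 and 0.131 of Hey1 in the differentiating progenitor libraries, against 0.0384, 0.0631 and 0.0589 in the proliferating progenitor libraries.

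Heyl, a Hes-related repressor of smooth muscle and pericytes, was the lowest member throughout. It stood at 19, 45 and 74 in proliferating progenitors, 9, 1 and 4 in differentiating progenitors, and 0, 1 and 0 in the neuron libraries. It reached a value of 10 only in the 3 proliferating progenitor libraries and so passed the filter on low values through the population where it was high, so that its comparisons with proliferating progenitors had to differ and serve as description. On the log2 scale with 1 added, the fitted change was -3.14 ± 0.69 in differentiating progenitors against proliferating progenitors (-2.54 without differentiating progenitor replicate 2, -4.22 with replicates 2 and 3 alone, and -1.84 with 10 added in place of 1). In reads, about 13 in differentiating progenitors stood against about 154 in proliferating progenitors. The 3 neuron libraries held about 1 read, a ratio of 0.00642 to proliferating progenitors (exact 95% interval 0.000162 to 0.0363, counting error only). Neurons and differentiating progenitors overlapped for Heyl at these few reads. The change between them (-1.88 ± 0.69, limma adjusted p = 0.0447) was lost with replicates 2 and 3 alone (0.127) and without any 1 of 5 libraries, with adjusted p of 0.0645 without proliferating progenitor replicate 2, 0.146 and 0.101 without differentiating progenitor replicates 1 and 3, and 0.106 and 0.116 without neuron replicates 1 and 3. Without differentiating progenitor replicate 2 it was -2.49.

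The summed markers of blood vessels moved with Heyl across the progenitor libraries. The 16 endothelial and mural cell markers summed to 827, 1249 and 1929 in proliferating progenitor replicates 1, 2 and 3, which is the order of Heyl at 19, 45 and 74. They summed to 462, 413 and 454 in differentiating progenitors and to 115, 112 and 164 in neurons. Of the 13 that passed the filter, 7 fell in differentiating against proliferating progenitors and 6 did not pass the test, where 11.1% of genes tested were lower. With the replicate block 11 fell, where 22% of genes were lower. Kcnj8 and Eng, both among the 7, passed the filter only through their proliferating progenitor libraries, as Heyl did. So did Cldn5, among the 6. Abcc9, among the 7, and Flt1 and Tie1, among the 6, reached 10 in too few other libraries to pass without those of proliferating progenitors. For such genes the filter itself selects for a fall, so both counts serve as description beside the shares of all genes. Emcn of the endothelium stood at 0 in every neuron library, but was low in progenitors too (1, 6 and 19 in proliferating, 0, 2 and 1 in differentiating). Other markers went another way. Kdr averaged 133 in differentiating and 108 in proliferating progenitors. Esam and Rgs5 averaged 24.7 and 25.7 in neurons, against 23.7 and 21 in differentiating progenitors. Meningeal markers (7 genes) had the same order in proliferating progenitors, at 384, 968 and 3470, and summed to 109 to 216 in differentiating progenitors and 31 to 66 in neurons. The part of vessel and meningeal cells in the values of Heyl, Hey1 and Hey2 was not tested.

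**Figure D3:**
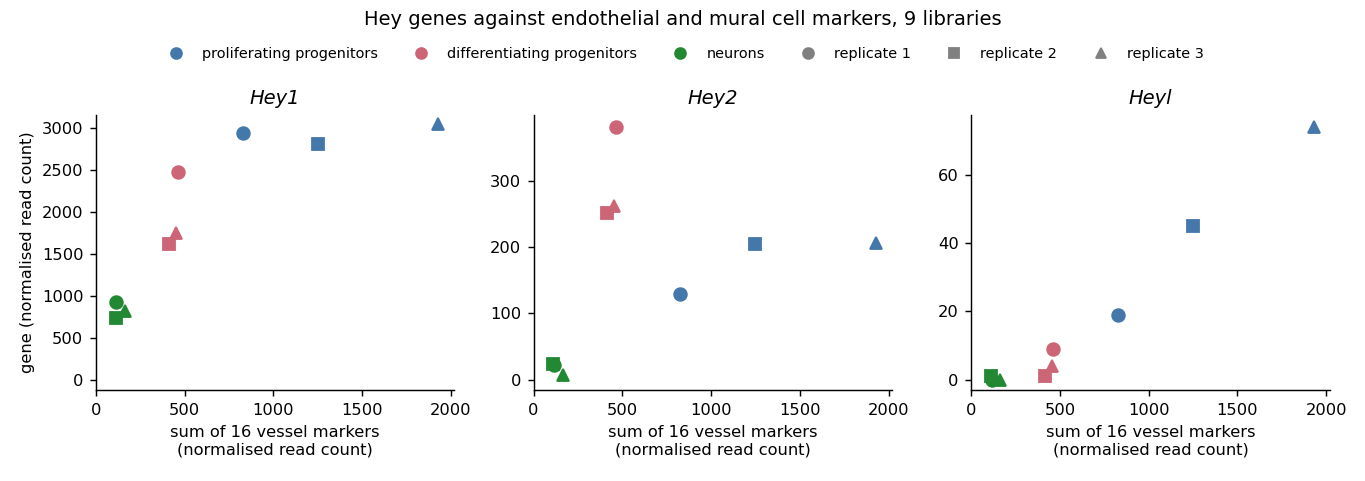
Normalised read count of Hey1, Hey2 and Heyl (vertical axes) against the summed normalised read count of 16 endothelial and mural cell markers (horizontal axis), 1 point per library, coloured by population and shaped by replicate. Heyl climbs with the marker sum over the proliferating progenitor libraries (19, 45 and 74 at sums of 827, 1249 and 1929); Hey1 lies at 2814 to 3042 there, and Hey2 at 130 to 206.

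Read against all genes, the first step was mixed and the second was not. Leaving Heyl aside, differentiating progenitors differed from proliferating progenitors in 3 of 5 members, Hes6 higher and Hes1 and Hey1 lower, where 24.9% of 15828 genes tested passed (13.8% higher and 11.1% lower). With the replicate block 1 was higher and 3 were lower, where 46% of genes passed (24% higher and 22% lower). Neurons had lower levels than differentiating progenitors in 5 of 5, where 54% of genes tested passed and 26.4% were lower (71.3% and 35.5% with the block). The median log2 change of the 5 was -4.14, against -0.01 over all genes. Neurons were lower than proliferating progenitors in 4 of 5, where 63.3% of genes passed and 31.1% were lower. With the block it was 5 of 5, where 78.2% passed and 39.5% were lower. The median log2 change of the 5 was -3.41, against -0.02 over all genes. These comparisons share libraries: differentiating progenitors stand in both steps, and proliferating progenitors and neurons in 2 comparisons each. Hes1 and Hey1 fell at both steps, as 5.7% of genes tested did, and with the replicate block Hes5 did too, where 11.8% of genes fell at both.

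**Figure D4:**
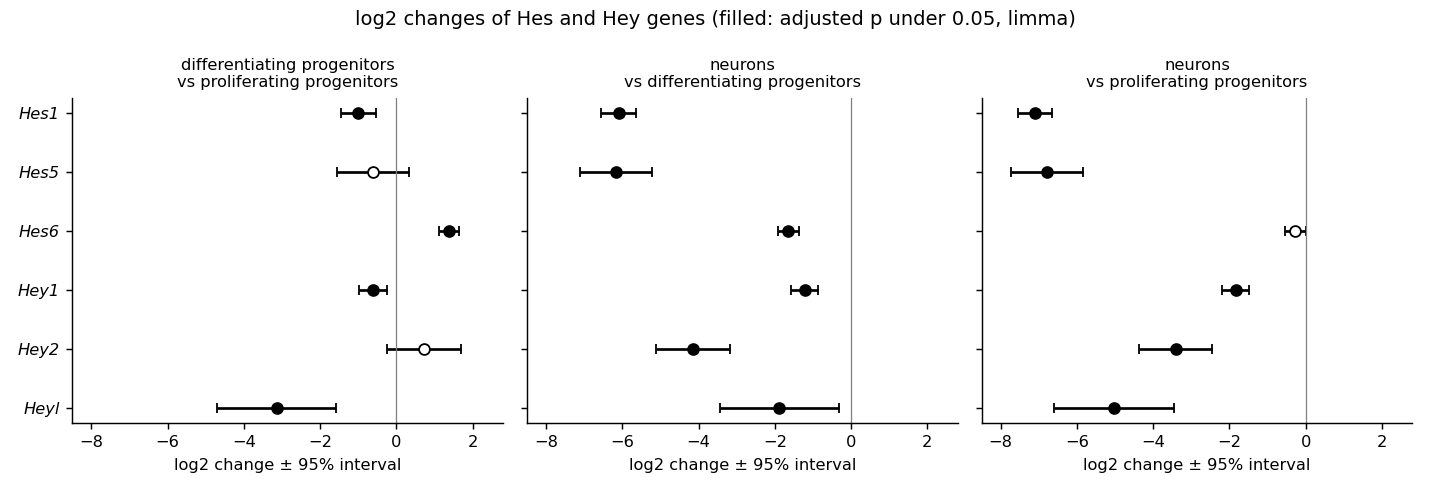
Log2 changes (horizontal axis) with 95% intervals from limma for the 6 genes (rows) in 3 comparisons (panels); filled circles had an adjusted p under 0.05. The left panel has Hes6 on the right of 0 at 1.38 and Hes5 and Hey2 open, the middle panel has all circles on the left of 0, and in the right panel Hes6 is open, at -0.27. Heyl passed the filter through its proliferating progenitor libraries, so its circles in the left and right panels are a description.

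In the authors' deposited table, the ratio of differentiating over proliferating progenitors was 0.51 for Hes1 (adjusted p = 0.002), 0.68 for Hes5 (0.96), 2.58 for Hes6 (4.3e-13), 0.66 for Hey1 (0.0047), 1.65 for Hey2 (0.34) and 0.1 for Heyl (0.04). The authors' deposited table thus has 4 of 6 members under 0.05 at this step, where it has 13.6% of 21210 genes. For neurons over proliferating progenitors the authors' deposited table gives Hes6 a ratio of 0.82 (adjusted p = 0.3), and 5 of 6 members are under 0.05, as are 42.3% of genes. For neurons over differentiating progenitors it is again 5 of 6 in the authors' deposited table (34.2% of genes), with Heyl at 0.18.

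Upstream of these genes, every Notch receptor was low in neurons. Of the 4 receptors, 4 fell in neurons against differentiating progenitors, where 26.4% of genes tested were lower. In differentiating against proliferating progenitors 3 fell, where 11.1% were lower. With the replicate block 4 fell there, where 22% were lower. Notch1, the receptor with the highest value, averaged 452 ± 195 in neurons and 18343 ± 2417 in differentiating progenitors (SD, n = 3 each; log2 change -5.41 ± 0.25, limma adjusted p = 2.37e-07). Notch3 averaged 76.7 ± 8.4 in neurons and 3633 ± 764 in differentiating progenitors (log2 change -5.53 ± 0.17). Of 9 ligands, 3 rose and 2 fell in differentiating against proliferating progenitors, and 4 rose and 3 fell in neurons against differentiating progenitors, where 24.9% and 54% of genes passed. With the replicate block 4 rose and 2 fell at the first step, where 46% of genes passed. The Delta ligands Dll1, Dll3 and Dll4 rose at the first step and fell at the second, as Hes6 did. Jag1 and Dner fell at the first step, and Dner, Jag2, Dlk2 and Cntn1 rose at the second. Jag1 averaged 1010 ± 92.4 in proliferating and 317 ± 16.5 in differentiating progenitors (log2 change -1.67 ± 0.15). Dner averaged 252 ± 38 in differentiating progenitors and 3387 ± 179.1 in neurons (log2 change 3.75 ± 0.13). Dll1 averaged 3499 ± 78.1 in proliferating progenitors, 7519 ± 469 in differentiating progenitors and 3874 ± 550.1 in neurons. Dll3 averaged 120.3 ± 50.8 in proliferating progenitors, 679 ± 62.2 in differentiating progenitors and 358 ± 46 in neurons. Dll4 averaged 26.3 ± 5.1, 258 ± 34.7 and 16.7 ± 5.1 in these populations (log2 change 3.25 ± 0.27 at the first step and -3.91 ± 0.27 at the second).

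Among 23 genes that process or modulate Notch, 5 rose and 2 fell in differentiating against proliferating progenitors, and 6 rose and 8 fell in neurons against differentiating progenitors. That is 7 and 14 of 23, at steps where 24.9% and 54% of all genes passed, so these shares lay near those of all genes. With the replicate block 8 rose and 4 fell at the first step, where 46% of genes passed. At the second step 8 rose and 10 fell with the block, where 71.3% passed. Lfng, a Fringe enzyme that adds sugar to Notch, averaged 9.67 ± 2.5 in neurons and 1379 ± 381 in differentiating progenitors (log2 change -7.01 ± 0.22, limma adjusted p = 5.4e-08). The Fringe gene Mfng also fell at this step, to 627 ± 181 from 4669 ± 501, after a rise from 1161 ± 186 in proliferating progenitors. Rfng went the other way, with 1832 ± 24.6 in neurons and 785 ± 14.6 in differentiating progenitors (log2 change 1.22 ± 0.08). Of 11 genes of the nuclear complex and its feedback, 1 rose at the first step and 10 did not pass. At that step 24.9% of all genes passed. With the replicate block 3 rose and 2 fell there, where 46% passed. At the second step 1 rose and 7 fell, where 54% of all genes passed and 26.4% fell. With the block it was 1 and 8, where 71.3% passed and 35.5% fell. The Notch feedback inhibitor Nrarp averaged 182 ± 45.5 in neurons and 2518 ± 748 in differentiating progenitors (log2 change -3.77 ± 0.24). Bcl6, a repressor that opposes Hes5 in the mouse cortex, went the other way, with 480 ± 26.7 in neurons and 73.7 ± 15.6 in differentiating progenitors (log2 change 2.71 ± 0.23). Rbpj itself moved less, with 1341 ± 80.3 in neurons and 1896 ± 140.1 in differentiating progenitors (log2 change -0.50 ± 0.10, limma adjusted p = 0.00206).

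The Groucho/TLE family includes corepressors of Hes proteins. Of 6 genes of this family, 3 rose in neurons against differentiating progenitors, 0 fell and 3 did not pass (4 rose with the replicate block). At that step 54% of genes tested passed in either direction (71.3% with the block), and 26.4% were lower. In differentiating against proliferating progenitors 1 rose and 2 fell (2 and 2 with the replicate block), where 24.9% of genes passed (46% with the block). Tle2 averaged 2029 ± 441 in neurons and 144 ± 28.4 in differentiating progenitors (SD, n = 3 each; log2 change 3.81 ± 0.32, limma adjusted p = 8.15e-06). Tle4 averaged 2208 ± 268 in neurons and 876 ± 43.8 in differentiating progenitors (log2 change 1.33 ± 0.14).

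Of the proneural and neurogenic helix-loop-helix genes, 12 were tested, among them the widely expressed E-proteins Tcf3, Tcf4 and Tcf12, which are partners of proneural factors. Neurog1 and Neurog2 are also on the intermediate progenitor list, and Neurod6 is on the neuronal list. In differentiating against proliferating progenitors 10 rose and 2 did not pass (11 rose with the replicate block), where 13.8% of genes were higher (24% with the block), with a median log2 change of 2.41, against -0.02 over all genes. In neurons against differentiating progenitors 3 rose and 7 fell, where 54% of genes tested passed and 26.4% were lower. Neurog2, the main proneural gene of the cortex, averaged 12844 ± 1022 in differentiating progenitors and 6422 ± 897 in proliferating progenitors (SD, n = 3 each; log2 change 1.01 ± 0.14, limma adjusted p = 0.000781). In neurons Neurog2 was at 952 ± 144, a log2 change of -3.76 ± 0.14 against differentiating progenitors. Neurod1, which acts after Neurog2, averaged 2624 ± 232 in differentiating progenitors and 121 ± 70.7 in proliferating progenitors (log2 change 4.58 ± 0.35), and 3208 ± 904 in neurons.

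Genes with the most similar profile were found by the root mean square difference between centred log2 profiles over the 9 libraries, among genes with a mean of at least 100. The 9 libraries form 3 groups that lie apart, so the Pearson r beside it mostly follows the group levels and is a description. For Hes1 the nearest were Etl4 (difference 0.17, r = 0.999), Wwtr1, the Hippo coactivator TAZ (0.22), and Gas1, a Hedgehog co-receptor (0.23). Gas1 was also nearest to Hes5 (0.32, r = 0.995), followed by the potassium channel gene Kcnj10 (0.33) and A630055G03Rik (0.37). Kcnj10 stood at 1969, 1834 and 1337 in proliferating progenitors, 1426, 786 and 617 in differentiating progenitors, and 27, 13 and 8 in the neuron libraries. Nearest to Hes6 were BC034090 (0.15, r = 0.979), Fam53b (0.17) and Abcd2, a peroxisomal transporter (0.19). Abcd2 had counts of 1537, 1346 and 1070 in proliferating progenitors, against 3839, 4771 and 4216 in the differentiating ones, while neuron libraries held 1490, 1048 and 1260. By the root mean square difference, Hey1 had closer companions than any other member, Snhg3 (0.08, r = 0.994), Tmem164 (0.09) and C130039O16Rik (0.09). That difference is not scaled to the range of a gene, and r was higher for the 3 nearest to Hes1 (0.997 to 0.999). Nearest to Hey2 were Fam83d (0.29, r = 0.990), Ccdc99 (0.32) and the kinesin gene Kifc1 (0.33), each highest on average in differentiating progenitors and low in neurons. Heyl had no close companion: Igf2, a growth factor gene on the meningeal marker list, was the nearest at 0.77 (r = 0.964), with 162, 239 and 515 in proliferating progenitors.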

How the data were processed

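Poly-A RNA of 9 sorted pools was sequenced strand-specifically, per the labels' protocols. The submitters' processing notes name build mm9 and, without roles, DESeq 1.8.1, bedtools 2.11, BWA and CASAVA 1.8.0. The authors deposited a normalised score per gene and library, a whole number that from the values is a read count divided by a size factor and rounded, with Ensembl version 61 identifiers per the file headers. The authors also deposited ratios of group means (fold) with an adjusted p-value, whose method the sources used here leave unnamed, and gene lengths.

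Reads per library were estimated from which small whole numbers occur. Since these are estimates, no count model was fitted. An intensity-trend limma model (3.58.1, R 4.3.3) was fitted to log2(value + 1) of all 9 libraries (6 residual degrees of freedom), over the 15828 genes that reached 10 in 3 or more libraries. Folds on this scale understate the change of low genes. P-values were adjusted by Benjamini-Hochberg over all of them, with a threshold of 0.05, and the fit was tested on simulated data. Python 3.11.15 did the rest. Intervals on reads are exact (Clopper-Pearson) and cover counting error only.

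Members and lists were chosen with earlier results of these data known. Named genes are the 6 members, the 3 nearest profiles of each, and from each list up to 4 members with the smallest adjusted p in a comparison, plus list members needed to complete a small count and markers at or near 0; Rbpj, Hes3 and Hes7 were named after their values were seen. Libraries of equal number pair: after removal of group means all 9 such pairs correlated across genes (r from 0.507 to 0.767; 18 other pairs, -0.64 to 0.428). The blocked fit (replicate number as a term) is given where it changes a member's call or a list's count. Promoters came from RefSeq on GRCm38.p6, gene overlaps from GENCODE release M21.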

Additional observations from a re-analysis of the deposited data

How the results depend on the processing

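Over the 6 genes and 3 comparisons, 307 refitted values kept their direction and their side of the threshold, 12 lost the call, 5 gained one and 0 turned direction. The alternatives were pseudocounts of 0.5 and 10, no filter, total-sum and upper-quartile scaling, no intensity trend, the compared groups alone, a replicate block, each library left out, and replicates 2 and 3 alone. Beside the losses and gains given with Hes5, Hes6, Hey1 and Heyl, the fall of Heyl in neurons against differentiating progenitors was lost with a pseudocount of 10 (adjusted p = 0.309) and in those groups alone (0.0603). The replicate block raised the genes changed between progenitor populations to 7282, against 3944 without it, and changed no other call of a member than those of Hes5 and Hes6. Few reads limit Heyl in every population and Hes1, Hes5 and Hey2 in neurons. The causes of these shifts were not tested.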

Other observations

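Of the other bHLH-Orange genes, Bhlhe40 averaged 33 ± 7.2 in neurons and 501 ± 217 in differentiating progenitors (SD, n = 3 each; log2 change -3.82 ± 0.28, limma adjusted p = 3.2e-06). Helt, a factor of midbrain GABAergic neurons, averaged 35.3 ± 29.7 in differentiating progenitors and 5.33 ± 6.1 in proliferating progenitors, and was listed at 0 in neurons. Hes3 and Hes7 had means of at most 0.333 and 5 in any population and were not tested. Id genes encode helix-loop-helix proteins without a DNA-binding region. Of the 4, 1 rose and 3 fell in neurons against differentiating progenitors, where 54% of genes tested passed and 26.4% were lower. Id2 averaged 4344 ± 357 in neurons and 916 ± 66.8 in differentiating progenitors (log2 change 2.24 ± 0.13, limma adjusted p = 9.46e-07). Id4 averaged 292 ± 79.3 in neurons and 3216 ± 1285 in differentiating progenitors (log2 change -3.42 ± 0.27, limma adjusted p = 5.1e-06).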
